A study of Homo sapiens with 6 samples.

Results

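A set of 9 genes that mark injured or incompletely repaired proximal tubule were followed in HK-2 cells, namely HAVCR1, LCN2, SPP1, CLU, VCAM1, SOX9, PROM1, IGFBP7 and GDF15. They were chosen by symbol, and all 9 of 9 were found among the 31831 genes of the deposited count table. All 9 also passed the filter on low counts that left 17142 genes for testing, although PROM1 did so with a mean of only 13.7 counts per library. HK-2 is an established, immortalized line of human proximal tubule epithelium. The cells carried either a control lentivirus with an empty vector (HG-NC) or a lentivirus expressing hnRNP-F, an RNA-binding splicing factor (HG-OE). Both groups were kept in medium with 30 mM glucose for 72 h, so the high glucose is shared and its own effect cannot be read from these libraries. Each group had 3 libraries of poly(A) RNA, which the study calls biological replicates. The question asked here was whether the RNA of these markers differed between HG-OE and HG-NC.

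When tubule cells are injured they lose their transport functions, flatten, and switch on a set of genes that are low in healthy tubule. Some products are secreted into urine or blood, such as neutrophil gelatinase-associated lipocalin (LCN2), osteopontin (SPP1), clusterin (CLU) and growth differentiation factor 15 (GDF15). Others sit on the cell surface, such as kidney injury molecule (HAVCR1) and the adhesion molecule VCAM1, and SOX9 is a transcription factor of regenerating tubule cells. Markers of this kind are used to follow kidney damage in diabetes and other diseases, and cells that keep VCAM1 are often described as cells whose repair has failed.

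Totals were 25507595 to 29444841 counted read pairs per library. HNRNPF itself had 7733 to 8692 counts in the HG-NC libraries and 12397 to 13155 in the HG-OE libraries, and a count per gene does not tell the construct from the cell's own gene. PAX8, a gene of the kidney lineage, was present with 11953 to 18291 counts in every library. Other genes of proximal tubule were mixed. MIOX had 744 to 1136 counts, SLC4A4 455 to 824, GATM 257 to 392 and SLC5A2 73 to 127, whereas AQP1 had 0 to 7 counts and LRP2 and HNF4A had 0 counts in every library but HG-OE replicate 3. That library stood apart. On average over 12365 well-counted genes, the squared difference from another HG-OE library was 10.4 and 11.0 times the counting noise, against 3.14 between HG-OE replicates 1 and 2 and 2.36 to 4.10 between HG-NC libraries. It also had higher counts of genes that mark other cell types, and bulk RNA does not tell such cells from HK-2 cells expressing these genes. Of 20 hepatocyte markers, SERPINA1 was high in all libraries, and the other 19 summed to 546 CPM (CPM is the count scaled to a common library size, with TMM factors) in HG-OE replicate 3, 17.2 CPM in HG-NC replicate 3 and 3.73 to 6.82 CPM in the other four libraries. The 16 squamous epithelium markers with a row in the table summed to 269.9 CPM in HG-OE replicate 3, 175 and 179 CPM in HG-OE replicates 2 and 1, and 71.9 to 77.6 CPM in HG-NC. Most of this sum outside HG-OE replicate 3 was 1 gene, S100A2. The other 15 summed to 89.4 CPM in HG-OE replicate 3, 11.4 and 14.5 CPM in HG-OE replicates 2 and 1, and 13.1 to 15.5 CPM in HG-NC. SERPINA1 and S100A2 were set apart after their values were seen. Genes of the squamous list differed. KRT5 and KRT6A had 334 and 274 counts in HG-OE replicate 3 and 0 elsewhere. KRT14 and KRT6B had only 3 and 2 counts in that library and 0 elsewhere. KRT4 had 6 counts there, against 4 to 12 elsewhere, and DSC3 had 185, against 123 to 167. These 6 genes were named after their values were seen. Of 14 leukocyte, endothelial and fibroblast markers, summed levels were 41.6 to 45.6 CPM in HG-NC. They were 39.1 and 39.9 CPM in HG-OE replicates 1 and 2, and 60.0 CPM in HG-OE replicate 3. Of the 4 hepatocyte, 3 squamous and 7 other markers that could be tested, 4, 1 and 3 were higher and 0, 0 and 1 lower in HG-OE by the threshold used below (adjusted p under 0.05, edgeR), where 25.9% of all genes tested were higher and 25.9% lower. Of the 4 hepatocyte markers, AFP and AMBP did not pass without HG-OE replicate 3, with log2 fold changes of -0.062 (adjusted p = 0.862, edgeR) and -1.03 (adjusted p = 0.053). Marker values below are given with and without HG-OE replicate 3 where that library changes them.

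The markers did not move as a block. At an adjusted p under 0.05, GDF15, VCAM1 and SPP1 were lower and IGFBP7 and HAVCR1 higher in HG-OE, while LCN2, CLU, SOX9 and PROM1 did not pass the test (quasi-likelihood test of edgeR, p-values adjusted across all genes tested after Benjamini and Hochberg). These are 5 of 9 markers, against 51.8% of all genes tested, so the share is close to the background of the comparison. Lower genes made up 3 of 9, against a background of 25.9%, and higher genes 2 of 9, against 25.9%. Only GDF15 also reached a 2-fold change, downward, as 2.13% of all genes tested did, and 5.82% did so in either direction. The libraries of the groups did not overlap for 6 of 9 markers, against 59.0% of all genes tested. The median log2 fold change of the 9 was 0.28, the value of CLU, beside 0.011 for all genes tested. Without HG-OE replicate 3, CLU was again the middle marker, at 0.067, beside a median of 0.0029 for all genes tested. A single median describes poorly a list with changes in both directions. The 5 genes that passed did so in each of 15 other settings with a test, among them the fit without HG-OE replicate 3.

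**Figure D1:**
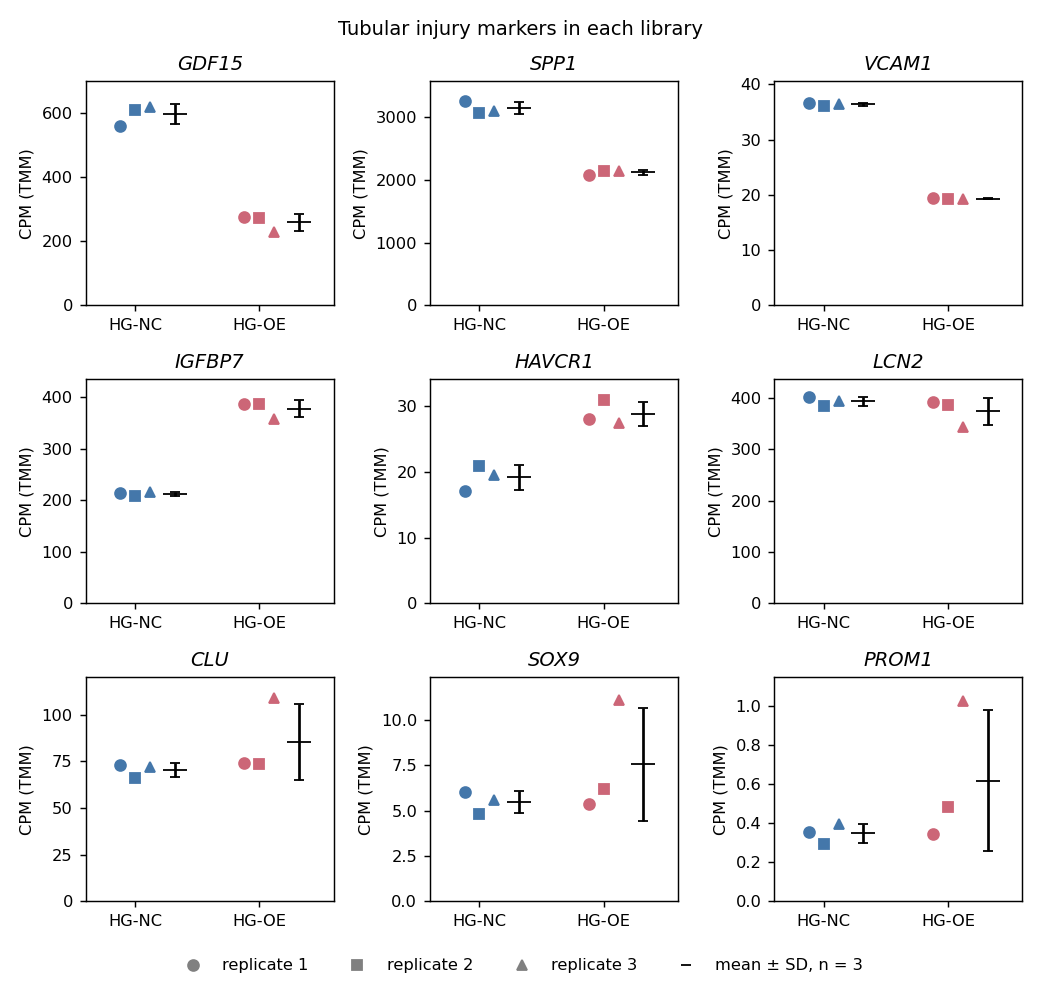
CPM (TMM-scaled, vertical axes from 0) of the 9 markers in each library of HG-NC (blue) and HG-OE (red), with the shape giving the replicate number and the black bar the mean ± SD of 3 libraries. The groups are widely separated for GDF15, SPP1, VCAM1, IGFBP7 and HAVCR1, while in CLU, SOX9 and PROM1 the triangle of HG-OE replicate 3 lies far above the other libraries.

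Among the secreted markers, GDF15 fell most. GDF15 encodes a stress-induced hormone of the TGF-beta superfamily that acts on the brainstem and rises in blood in many diseases. The gene (ENSG00000130513.6) lies on chromosome 19 between 18374731 and 18389176 (GRCh38, as are all positions given). The level stood at 559, 609.5 and 618 CPM in HG-NC replicates 1, 2 and 3 and 276, 271 and 228 CPM in HG-OE replicates 1, 2 and 3. Every HG-NC library lay far above every HG-OE library, and the spread within a group was small beside the gap between groups. This gave a log2 fold change of -1.20 (standard error 0.0636, 95% interval -1.34 to -1.07, adjusted p = 7.10e-09, edgeR), which is a level 2.31 times lower in HG-OE. HG-OE replicate 3 was the lowest library, and without it the log2 fold change was -1.12. The exact two-sided permutation test gave p = 0.1, the smallest that 3 libraries against 3 allow, and the same holds for every marker below whose groups do not overlap. In bulk RNA, fewer cells expressing a gene and less of its RNA per cell cannot be told apart, here and in all values that follow. A larger absolute change was found for 4.03% of all genes tested.

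The genes whose pattern over the 6 libraries was most like that of GDF15 were CSF1, EPHA2 and EMILIN2. Likeness was measured among 11561 protein-coding genes with a mean of at least 100 counts, as the root mean square difference of the log2 CPM profiles after each was centred on its own mean. This difference was 0.0256 for CSF1, the growth factor of macrophages, which had 492 ± 18.8 CPM in HG-NC, against 214 ± 20.3 CPM in HG-OE (means with SD over 3 libraries). For EPHA2, an ephrin receptor, it was 0.0297, with 426 ± 17.9 and 191 ± 19.5 CPM. For EMILIN2, an extracellular matrix glycoprotein, it was 0.0401, with 24.0 ± 0.633 and 10.6 ± 1.20 CPM. With 6 libraries in 2 groups, this likeness rests largely on the difference between the groups.

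SPP1 encodes osteopontin, a secreted phosphoprotein that binds integrins and CD44 and inhibits the growth of crystals in urine. The gene (ENSG00000118785.15) lies on chromosome 4 from 87975667 to 87983532. It had 3252, 3074 and 3105 CPM in HG-NC replicates 1, 2 and 3 and 2077, 2143 and 2140.0 CPM in HG-OE. The HG-OE libraries lay within a narrow band, all of them under the lowest HG-NC library. SPP1 thus showed a log2 fold change of -0.57 (standard error 0.0327, 95% interval -0.64 to -0.50, adjusted p = 1.45e-08, edgeR), or 1.48 times lower. The 49 well-counted genes within 10 Mb of SPP1 had a median log2 fold change of -0.35, and with this median removed the value for SPP1 was -0.22.

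IGFBP7 moved the other way. It encodes a secreted protein of the insulin-like growth factor binding family that is linked to cell cycle arrest and is measured, together with TIMP2, in urine as a warning of acute kidney injury. The gene (ENSG00000163453.11) lies on chromosome 4 from 57030773 to 57110385. It had 214, 208 and 215 CPM in HG-NC replicates 1, 2 and 3 and 387, 386 and 358 CPM in HG-OE replicates 1, 2 and 3. Every HG-OE library was far above every HG-NC library. Its log2 fold change was 0.83 (standard error 0.0411, 95% interval 0.74 to 0.92, adjusted p = 3.91e-09, edgeR), a level 1.78 times higher, and 0.87 without HG-OE replicate 3. Among 32 well-counted genes within 10 Mb the median was -0.16, opposite in sign, and with it removed the value for IGFBP7 was 0.99. IGFBP7 shares 260 of its 1930 annotated exon bases with POLR2B, which lies on the other strand and encodes a subunit of RNA polymerase II. The library kit keeps strand, but whether the counting used it is not stated. POLR2B had 3537 to 3701 counts in HG-NC and 3609 to 3792 in HG-OE (log2 fold change -0.10). The antisense gene IGFBP7-AS1 had 60 to 82 counts in HG-NC and 111 to 169 in HG-OE (log2 fold change 0.91). It shares 94 exon bases with IGFBP7, so part of the reads of this low gene cannot be assigned with certainty. The part of shared reads in the IGFBP7 value was not tested.

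LCN2 encodes an iron-siderophore binding lipocalin that damaged tubules release into urine. The gene (ENSG00000148346.12) lies on chromosome 9 from 128149071 to 128153453. It had 401, 385 and 394 CPM in HG-NC replicates 1, 2 and 3 and 391, 386 and 344 CPM in HG-OE replicates 1, 2 and 3. The groups overlapped, and only HG-OE replicate 3 was lower than all HG-NC libraries. With a log2 fold change of -0.073, LCN2 did not pass the test (adjusted p = 0.215 in edgeR, p = 0.3 in the exact two-sided permutation test). The standard error was 0.0474, and the 95% interval of -0.18 to 0.029 holds both a small fall and no change. With the median of 0.12 of its 200 well-counted neighbours within 10 Mb removed, the value was -0.19. Without HG-OE replicate 3, the log2 fold change was -0.017. At about 10720 counts per library, counting noise was 0.966% of the level, well under the 2.08% and 6.91% found as coefficients of variation in HG-NC and HG-OE.

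CLU encodes clusterin, a secreted chaperone that keeps misfolded proteins in solution. The gene (ENSG00000120885.22) lies on chromosome 8 from 27596917 to 27614700. It had 72.8, 66.2 and 72.1 CPM in HG-NC replicates 1, 2 and 3 and 73.9, 73.4 and 109 CPM in HG-OE replicates 1, 2 and 3. HG-OE replicates 1 and 2 were barely above the highest HG-NC library, and HG-OE replicate 3 was 1.48 times their mean. CLU showed a log2 fold change of 0.28 (standard error 0.116, 95% interval 0.030 to 0.53, adjusted p = 0.0584, edgeR), which did not pass the test. Without HG-OE replicate 3 it was 0.067 (adjusted p = 0.268), and without HG-OE replicate 1 or 2, which gives more weight to that library, it was 0.37 (adjusted p = 0.0180) or 0.38 (adjusted p = 0.0166).

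HAVCR1, also called kidney injury molecule, is a surface receptor for phosphatidylserine with which injured tubule cells take up dead neighbours. It is close to undetectable in healthy kidney. The gene (ENSG00000113249.13) lies on chromosome 5 from 157026742 to 157069396. It had 17.1, 20.95 and 19.5 CPM in HG-NC replicates 1, 2 and 3 and 28.05, 30.95 and 27.55 CPM in HG-OE replicates 1, 2 and 3. No HG-NC library reached the lowest of these, and HG-OE replicate 3 lay with the other HG-OE libraries. For HAVCR1 the log2 fold change was 0.59 (standard error 0.0794, 95% interval 0.42 to 0.76, adjusted p = 3.27e-05, edgeR), or 1.502 times the HG-NC level. Many genes around it were also higher: the median log2 fold change of its 61 neighbours within 10 Mb was 0.35, and with this removed the value for HAVCR1 was 0.24. TIMD4, a paralog that binds phosphatidylserine too, had 33 to 36 counts in HG-NC and 51 to 71 in HG-OE (log2 fold change 0.67, adjusted p = 0.0206, edgeR). HAVCR2, the third paralog of this family, had 4 to 10 counts and was not tested. TIMD4 and HAVCR2 were named after their values were seen.

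VCAM1 is an adhesion molecule that binds the integrin ITGA4 on leukocytes and is switched on by NF-kB, the transcription factor at the end of TNF signalling. The gene (ENSG00000162692.12) lies on chromosome 1 from 100719742 to 100739045. It had 36.6, 36.1 and 36.5 CPM in HG-NC replicates 1, 2 and 3 and 19.5, 19.3 and 19.2 CPM in HG-OE replicates 1, 2 and 3. No marker was more uniform within groups, with coefficients of variation of 0.847% and 0.829%, which is less than the 3.60% that counting noise alone would give at a mean of 770 counts. VCAM1 showed a log2 fold change of -0.91 (standard error 0.0551, 95% interval -1.03 to -0.79, adjusted p = 2.21e-08, edgeR), a level 1.88 times lower and just short of 2-fold. It was -0.91 without HG-OE replicate 3 as well, and -0.82 after removal of the median of its 76 neighbours.

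The base sequences before the transcription starts of VCAM1, HAVCR1 and LCN2 are shown because these markers fell, rose and did not pass the test, in that order, and because VCAM1 is a known target of NF-kB. They are taken from RefSeq (GRCh38.p14), which had entries for 6 of 9 markers in the table used; CLU, SOX9 and IGFBP7 had none. PROM1 had 4 starts, and the windows of SPP1 and GDF15 overlapped annotated exons, so these are not printed. Only bases outside annotated exons are given, 5′ to 3′ on the strand of the gene, with motif matches in capitals.
VCAM1, chr1:100719492-100719741, plus strand, bases 250 to 1 before the start: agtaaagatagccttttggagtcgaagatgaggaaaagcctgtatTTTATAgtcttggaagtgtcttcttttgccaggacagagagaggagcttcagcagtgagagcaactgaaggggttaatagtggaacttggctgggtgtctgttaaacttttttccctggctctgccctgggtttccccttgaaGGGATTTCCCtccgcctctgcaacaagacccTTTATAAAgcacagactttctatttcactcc
HAVCR1, chr5:157059120-157059366, minus strand, bases 250 to 4 before the start: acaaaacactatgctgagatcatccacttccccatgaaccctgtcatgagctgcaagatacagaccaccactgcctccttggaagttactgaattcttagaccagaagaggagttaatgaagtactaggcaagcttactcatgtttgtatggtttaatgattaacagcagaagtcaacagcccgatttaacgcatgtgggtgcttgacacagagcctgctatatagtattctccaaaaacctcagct
LCN2, chr9:128149265-128149440, plus strand, bases 188 to 13 before the start: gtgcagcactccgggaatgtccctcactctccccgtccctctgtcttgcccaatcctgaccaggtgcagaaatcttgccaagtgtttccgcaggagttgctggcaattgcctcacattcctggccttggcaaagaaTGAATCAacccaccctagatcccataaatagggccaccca

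A search for 6 motifs covered both strands of the 250 bases before each start. VCAM1 held the NF-kB motif (GGG, any 2 bases, TT, any base, CC) at bases 62 to 53 before its start, as GGGATTTCCC, and 5.07% of 35116 such windows hold this motif. It also held the TATA box TATAAA at bases 29 to 24, which overlaps a match on the other strand at bases 31 to 26, and another match at bases 205 to 200; TATAAA is found in 10.7% of windows. LCN2 held the AP-1 motif TGANTCA at bases 52 to 46 (6.57% of windows). GDF15 held TATAAA at bases 29 to 24 and the GC box GGGCGG at bases 119 to 114 and 70 to 65 (42.6% of windows). Among its 4 starts PROM1 had 1 AP-1 match and 1 GC box, and SPP1 and HAVCR1 held none of the 6. The CRE motif TGACGTCA (1.65% of windows) and the CEBP-ATF motif TGATGCAA (0.772%) were in none of the 6 markers. A match is only a run of letters, and binding was not measured here. The patterns allow no other base at a fixed position, so a missing match does not mean that a site is absent. For example, VCAM1 also holds gggtttcccc and LCN2 holds gggaatgtcc, which are close to the NF-kB motif but do not match it.

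SOX9 and PROM1 mark regenerating or progenitor-like tubule cells. SOX9 encodes a transcription factor of kidney development that returns after injury. The gene (ENSG00000125398.8) lies on chromosome 17 from 72121020 to 72126416. It had 154, 131 and 156 counts in HG-NC replicates 1, 2 and 3 and 156, 180 and 326 counts in HG-OE replicates 1, 2 and 3. The mean of HG-OE replicates 1 and 2 was 1.05 times the HG-NC level in CPM, and HG-OE replicate 3 had 1.93 times their mean. For SOX9 the log2 fold change was 0.46 (standard error 0.219, 95% interval -0.010 to 0.94, adjusted p = 0.0943, edgeR; exact permutation test, two-sided, p = 0.4), and without HG-OE replicate 3 it was 0.076 (adjusted p = 0.670). Without HG-OE replicate 1 it was 0.66 and passed the test (adjusted p = 0.0187).

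PROM1 encodes prominin, also known as CD133, a protein of membrane protrusions. The gene (ENSG00000007062.12) lies on chromosome 4 from 15963076 to 16084378. It was barely detected, with 9, 8 and 11 counts in HG-NC replicates 1, 2 and 3 and 10, 14 and 30 counts in HG-OE replicates 1, 2 and 3. The exact 95% Poisson interval of the 30 counts is 20.2 to 42.8. That of the 14 counts is 7.65 to 23.5, so these overlap. The intervals of HG-NC replicates 1, 2 and 3 and HG-OE replicate 1 end at 17.1, 15.8, 19.7 and 18.4, all below 20.2. These intervals cover counting error only. PROM1 showed a log2 fold change of 0.82 (standard error 0.445, 95% interval -0.14 to 1.78, adjusted p = 0.141, edgeR; exact permutation test, two-sided, p = 0.3), and 0.24 without HG-OE replicate 3. The coefficient of variation was 58.3% in HG-OE, beside 27.1% for counting noise alone.

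In CLU, SOX9 and PROM1, the markers whose values turn on HG-OE replicate 3, the high library is the same one that carries the hepatocyte and squamous markers. Its levels were 1.48, 1.93 and 2.48 times the mean of the other HG-OE libraries. The part of the hepatocyte and squamous markers in the 3 values was not tested. GDF15, IGFBP7, LCN2 and HAVCR1 were somewhat lower in this library, at 0.833, 0.926, 0.886 and 0.934 times the mean of the other HG-OE libraries, while SPP1 and VCAM1 were at 1.01 and 0.989 times. For the 5 markers that passed the test, the log2 fold change without HG-OE replicate 3 stayed close to the value with all libraries, and the widest gap was that of GDF15, -1.20 against -1.12.

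**Figure D2:**
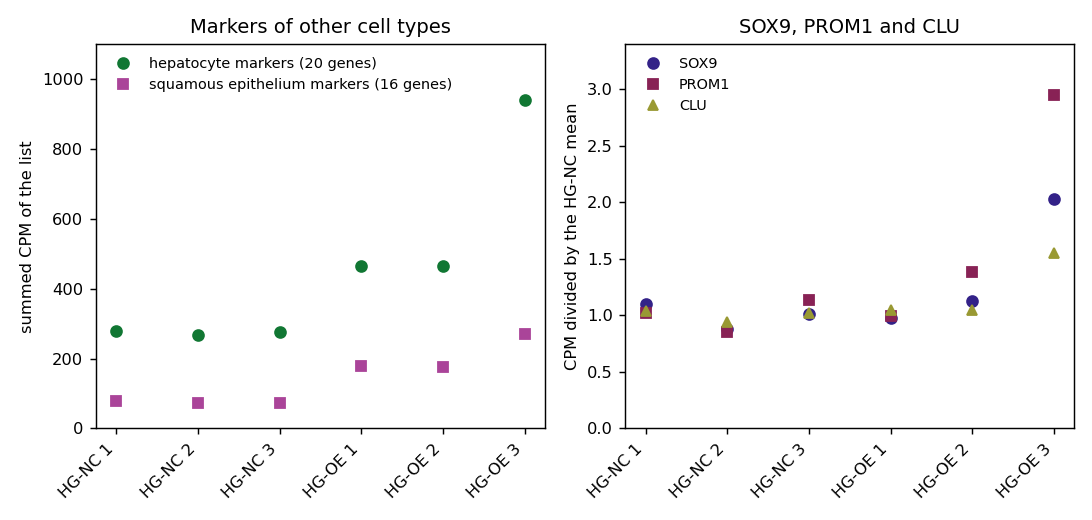
Left, CPM summed over hepatocyte markers (circles, SERPINA1 included) and squamous epithelium markers (squares) in each library. Right, CPM of SOX9, PROM1 and CLU divided by their HG-NC means; HG-OE replicate 3 is highest in both panels, with 941 CPM of hepatocyte markers against 463 and 465 in the other HG-OE libraries.

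**Figure D3:**
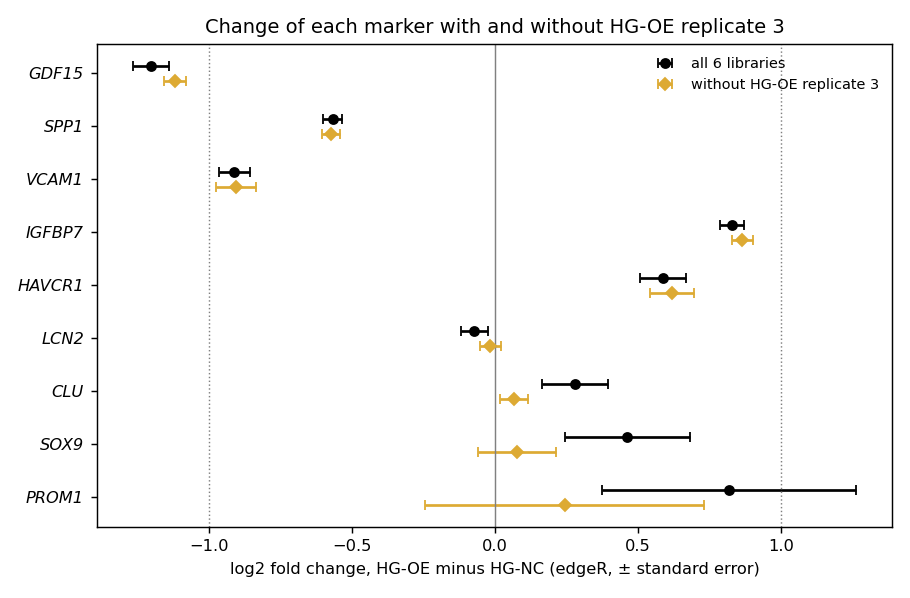
Log2 fold change of HG-OE minus HG-NC with its standard error for each marker, from all 6 libraries (black circles) and without HG-OE replicate 3 (yellow diamonds); dotted lines mark 2-fold. GDF15, SPP1, VCAM1, IGFBP7 and HAVCR1 keep their values, while CLU, SOX9 and PROM1 move toward 0, from 0.28, 0.46 and 0.82 to 0.067, 0.076 and 0.24.

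Levels of different genes can be compared only per transcript length, for which the authors' FPKM values were used. In HG-NC the order was SPP1 (388 ± 11.1 FPKM, mean ± SD, n = 3), GDF15 (255 ± 14.2), LCN2 (220.5 ± 4.54), IGFBP7 (98.5 ± 2.05), CLU (10.0 ± 0.525), HAVCR1 (7.98 ± 0.825), VCAM1 (5.38 ± 0.0551), SOX9 (1.25 ± 0.138) and PROM1 (0.0433 ± 0.00577). No neighbours in this order overlapped between libraries. In HG-OE, GDF15 dropped from the second to the fourth place, behind LCN2 (207 ± 14.6 FPKM) and IGFBP7 (173 ± 7.67), with 109.6 ± 11.3 FPKM. SPP1 remained first with 259 ± 3.25 FPKM. CLU and HAVCR1, at 12.03 ± 2.87 and 11.9 ± 0.696 FPKM, overlapped and cannot be ordered there. VCAM1 (2.83 ± 0.0346 FPKM), SOX9 (1.70 ± 0.703) and PROM1 (0.0733 ± 0.0416) closed the order in HG-OE. Markers in the upper group were thus among the abundant RNAs of the cells, with SPP1 at rank 64 and GDF15 at rank 98 of 31643 genes by mean FPKM in HG-NC, and at ranks 105 and 298 in HG-OE. IGFBP7 went from rank 340 to rank 175.

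**Figure D4:**
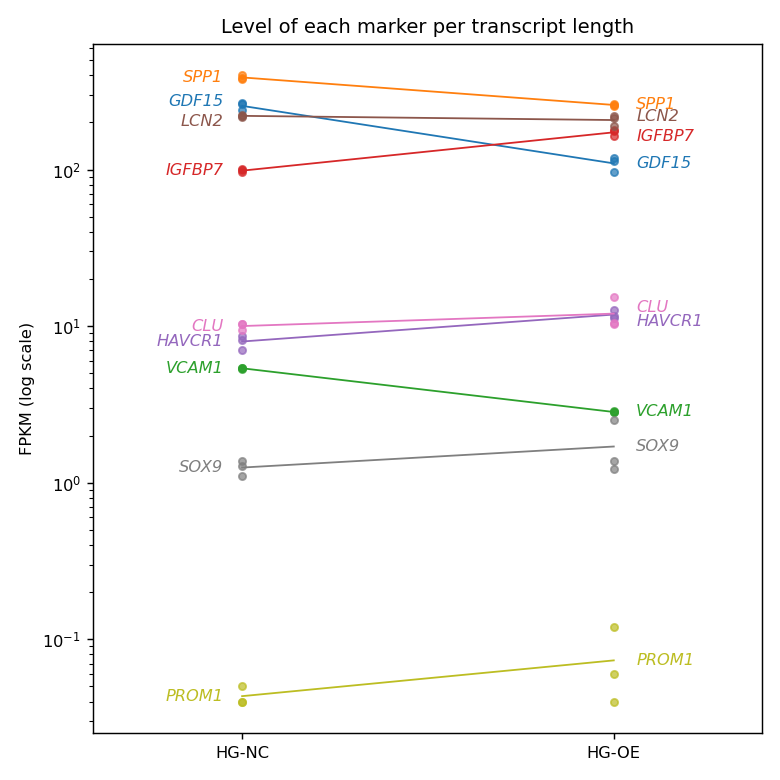
FPKM (log axis) of the 9 markers in HG-NC and HG-OE; points are libraries and lines join the group means. The lines of GDF15 and IGFBP7 cross, from 255 against 98.5 FPKM in HG-NC to 109.6 against 173 FPKM in HG-OE, and SPP1 stays on top.

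Further genes of tubular injury and repair were read from a list of 36, of which 34 were tested. At an adjusted p under 0.05, 20 were higher and 12 lower in HG-OE, and 2 did not pass (HMOX1 and CHI3L1, with log2 fold changes of 0.0059 and 0.048). This is 32 of 34, against 51.8% of all genes tested and 61.9% of the genes with a mean of at least 100 counts. Without HG-OE replicate 3 it is 31, since ANXA1 no longer passed (0.085, adjusted p = 0.0769, edgeR). The list was written with earlier results of these data known, and many of its genes have high counts. The share is therefore not a result about injury genes. The median log2 fold change of the 34 was 0.23, beside 0.011 for all genes tested. The largest fall was that of CCL2, a chemokine for monocytes, with 145 ± 4.45 CPM in HG-NC, against 20.6 ± 2.22 CPM in HG-OE (log2 fold change -2.82). KRT8, a keratin of simple epithelia that rises in stressed tubule, had 296.5 ± 3.45 and 755 ± 198 CPM (1.35, and 1.11 without HG-OE replicate 3, its highest library). VIM, the intermediate filament of mesenchymal and dedifferentiated cells, had 808 ± 3.58 and 1500.0 ± 70.0 CPM (0.89). MMP7, a matrix protease measured in urine in kidney fibrosis, had 35.2 ± 2.57 and 64.4 ± 4.31 CPM (0.87). For all of these the groups did not overlap, and CCL2 and KRT8 were the only genes of the list past 2-fold.

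Receptors, binding partners and sheddases of the markers were read from 20 genes, of which 15 were tested. At an adjusted p under 0.05, 6 were higher and 6 lower, against 25.9% and 25.9% of all genes tested, with a median log2 fold change of 0.036. Together 12 of 15 passed, against 51.8% of all genes tested and 61.9% of those with a mean of at least 100 counts. This list was also written with earlier results of these data known. FURIN, a protease that cleaves pro-proteins of the TGF-beta superfamily, had 63.5 ± 2.99 CPM in HG-NC, against 103 ± 18.9 CPM in HG-OE (log2 fold change 0.70, and 0.54 without HG-OE replicate 3). ITGA4, the VCAM1 receptor subunit, had 4.29 ± 0.389 and 6.78 ± 1.31 CPM (0.66, and 0.80 without HG-OE replicate 3). ADAM17, a sheddase that releases VCAM1 from the cell surface, had 88.0 ± 5.67 and 62.3 ± 2.12 CPM (-0.50). CD44, a receptor of osteopontin, had 728 ± 4.25 and 560.5 ± 21.9 CPM (-0.38). Among these 15, the one gene past 2-fold was SLC22A17, a receptor of LCN2, with 89 to 110 counts in HG-NC and 34 to 39 in HG-OE (-1.54, adjusted p = 1.76e-05, edgeR); it has under 100 counts on average and was named after its values were seen. GFRAL, the receptor of GDF15, and TREM2 had no row in the count table, and LRP2, ITGA9 and CD300LF were too low to be tested.

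Of 20 transcription regulators known to act on one or more of the markers, all were tested. At an adjusted p under 0.05, 4 were higher, 11 were lower and 5 did not pass, with a median log2 fold change of -0.23. That is 15 of 20, against 51.8% of all genes tested and 61.9% of those with a mean of at least 100 counts. The lower ones compare with 25.9% of all genes tested. This list too was written with earlier results of these data known, so its share is not a result about the regulators. Without HG-OE replicate 3, 16 passed, with CEBPB added (0.16, adjusted p = 0.000342, edgeR, against 0.066 with all libraries). NFKB1, a subunit of NF-kB, had 112 ± 3.25 CPM in HG-NC, against 56.7 ± 2.83 CPM in HG-OE (log2 fold change -0.98). HIF1A, the oxygen-regulated factor, had 1150.0 ± 18.8 and 656 ± 42.6 CPM (-0.81). STAT3, the factor at the end of IL6 signalling, had 189 ± 2.03 and 119 ± 7.12 CPM (-0.67). EGR1, an immediate early gene, was the exception among the 4 with the largest change and rose from 2.95 ± 0.307 to 8.55 ± 2.73 CPM (1.53, and 1.30 without HG-OE replicate 3). RELA, the other main subunit of NF-kB, was among those that did not pass (0.080). For ATF4, a stress factor known to raise GDF15, the log2 fold change was 0.54 (adjusted p = 6.16e-08, edgeR), opposite in sign to GDF15. RELA, ATF4 and CEBPB are outside the naming rule and were chosen after their values were seen.

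Paralogs of the markers were read from 22 genes, and 9 were tested, of which 4 were higher and 3 lower at an adjusted p under 0.05, with a median of 0.50. This is 7 of 9, against 51.8% of all genes tested and 61.9% of those with a mean of at least 100 counts, on a list written with earlier results known. Within the binding proteins of insulin-like growth factors the directions differed. IGFBP4 had 10.8 ± 1.39 CPM in HG-NC, against 35.3 ± 4.61 CPM in HG-OE (log2 fold change 1.71), while IGFBP5 had 69.6 ± 4.04 and 23.3 ± 0.651 CPM (-1.57) and IGFBP3 had 196 ± 5.55 and 107 ± 10.7 CPM (-0.88). PTGDS, a lipocalin that makes prostaglandin D, had 2.32 ± 0.350 and 7.98 ± 1.02 CPM (1.78), unlike LCN2. Of 25 genes of proximal tubule identity, 13 were tested, 4 were higher and 2 lower, and 7 did not pass, with a median of 0.063. This is 6 of 13, near the 51.8% of all genes tested, and 5 without HG-OE replicate 3, where GATM no longer passed (0.22, adjusted p = 0.0577, edgeR). SLC4A4, a bicarbonate transporter, had 28.8 ± 1.87 and 17.4 ± 1.58 CPM (-0.73), PAX8 had 637 ± 29.9 and 447 ± 34.4 CPM (-0.51), CDH16 had 42.3 ± 1.22 and 64.8 ± 7.15 CPM (0.61), and MIOX had 28.3 ± 1.23 and 36.7 ± 2.96 CPM (0.38).

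**Figure D5:**
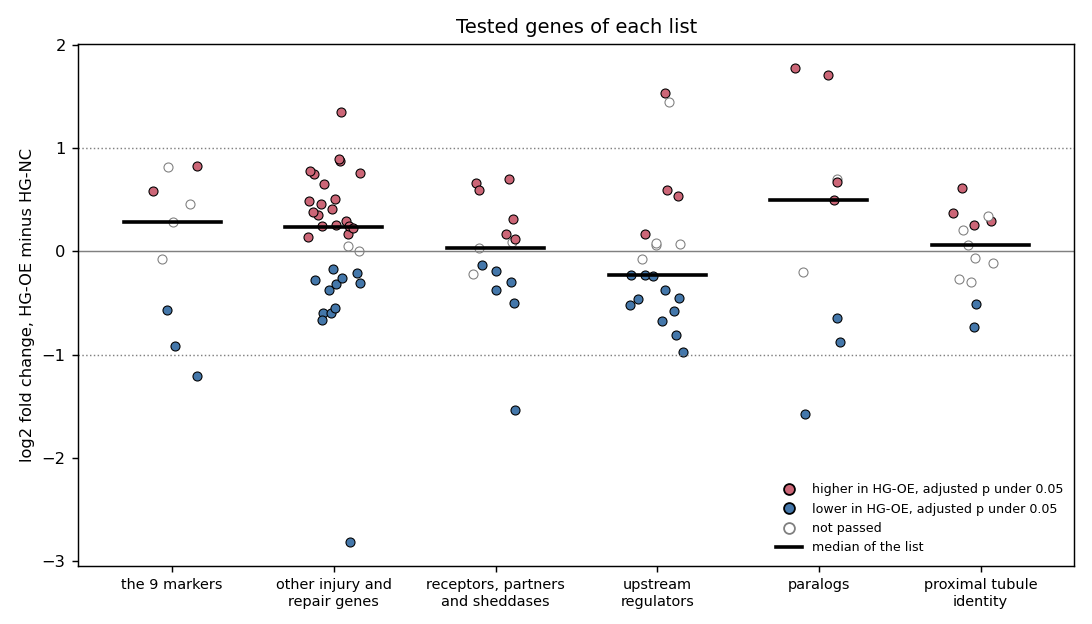
Log2 fold change of HG-OE minus HG-NC for every tested gene of 6 lists, filled where the adjusted p was under 0.05 (red higher, blue lower), with the median of each list as a bar; sideways scatter is random. Each list holds genes on both sides of 0, and the medians run from -0.23 for the upstream regulators to 0.50 for the paralogs.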

How the data were processed

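HK-2 cells of both groups (3 HG-NC and 3 HG-OE libraries of poly(A) RNA) were compared. The deposited counts are whole numbers per gene without normalization. The authors trimmed the reads, dropped those under 16 nt, aligned them to GRCh38 with HISAT2 (named in the submitters' processing notes) allowing 4 mismatches, and counted uniquely mapped reads. The deposited FPKM values were computed by the authors from such reads. The counter and the annotation release are not given in the sources used here. ComBat_seq is named in the study's methods, and whether it entered the counts is not stated. No batch is named in the labels, and no batch term was fitted.

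The count analysis ran in R 4.3.3 and used edgeR 4.0.16 (TMM, default low-count filter, quasi-likelihood test, Benjamini-Hochberg adjustment over 17142 genes), with thresholds of an adjusted p under 0.05 and a 2-fold change. P-values measure the spread between these libraries, described as biological replicates in one place and as parallel wells in another, and may be partly technical. Exact permutation tests were made on log2 CPM (prior count 2). Standard errors were derived from the quasi-likelihood F. Positions come from GENCODE release 44 on GRCh38, matched by gene ID. No pair of libraries agreed within counting noise. The scripts were tested on simulated data.

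Alternatives were DESeq2 1.42.0 (size factors, Wald test), total counts only, other low-count filters, limma 3.58.1 on log2 FPKM with a pseudocount of 1 or 0.1 (trended variance), a replicate block, each library left out, and removal of the median of neighbours with a mean of at least 100 counts within 10 Mb.

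The markers and lists were chosen from general knowledge with earlier results of these data known. Named genes were the 9 markers, HNRNPF, in each list up to 4 genes with a mean of at least 100 counts, an adjusted p under 0.05 and the largest change, and for each marker past 2-fold the 3 protein-coding genes with the most similar profile. Other genes were named after their values were seen.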

Additional observations from a re-analysis of the deposited data

How the results depend on the processing

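GDF15, SPP1, VCAM1, IGFBP7 and HAVCR1 kept their direction and passed the test in all 15 alternatives that give a p, and no marker changed sign in any setting. Between 5 and 7 of the 9 markers passed over the alternatives, and GDF15 alone reached 2-fold in each. The markers added were CLU (log2 fold change 0.26 without a low-count filter, 0.29 with at least 10 counts in every library, and without HG-OE replicate 1 or 2) and SOX9 (without HG-OE replicate 1). With each library left out in turn, the log2 fold change ran from -1.26 to -1.12 for GDF15, from 0.067 to 0.38 for CLU, from 0.076 to 0.66 for SOX9 and from 0.24 to 1.10 for PROM1. PROM1 was not tested with at least 10 counts in every library or with a mean FPKM of at least 0.1. Without a low-count filter, 11 genes of proximal tubule identity passed the test, against 6, since 23 rather than 13 were tested. Over all genes, 997 were past 2-fold, against 1539 without a filter, 617 with at least 10 counts in every library, and 144 or 138 on log2(FPKM + 1) with or without its filter, where the pseudocount shrinks the change of low genes.

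The labels name no pairing of same-numbered HG-NC and HG-OE libraries. Across genes, their deviations from the group means correlated at 0.0550, 0.0575 and 0.0244. For libraries of different number the values ran from -0.0761 to 0.0295. All are small, and a weak shared batch cannot be told from none. With the replicate number as a block, 6 of 9 markers passed, CLU being added (log2 fold change 0.26, adjusted p = 0.0178, edgeR), 1 was past 2-fold, and 990 genes over all were past 2-fold; the lists had 32, 12, 16, 7 and 6 genes past the test for other injury genes, partners, regulators, paralogs and proximal tubule identity.

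Removing the median of neighbouring genes moved HAVCR1 to 0.24, SPP1 to -0.22, LCN2 to -0.19 and IGFBP7 to 0.99, and the cause of these regional shifts was not tested. The values of PROM1, CLU and SOX9 depend on HG-OE replicate 3, and PROM1 also has few counts.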
